A study of Mus musculus with 5 samples.

Results

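Chemokines and their receptors were described in sorted embryonic cells treated with interferon-alpha (IFNa) or vehicle. A gene belonged to the set if its symbol was that of a numbered CC or CXC chemokine (Ccl, Cxcl), a numbered receptor for one (Ccr, Cxcr) or a numbered atypical receptor (Ackr). By this rule 49 genes of 17756 were members, 30 ligands and 19 receptors. The data were 5 Affymetrix arrays of cells from C57Bl/6 embryos at E11.5, taken from the aorta-gonad-mesonephros (AGM) region, where blood stem cells first arise. All cells had been sorted for VE-cadherin, an endothelial protein, together with CD45, a pan-leukocyte protein, and were then held in culture with fetal serum for the 4 hours of treatment. The IFNa group (n = 3) received 0.5 ng/ml and the vehicle group (n = 2) did not. Vehicle arrays carry the numbers 2 and 3, and a number 1 was not used here. How many embryos went into each sample is not stated, and the labels, though they speak of biological replicates, name no separate litters or cultures. The p-values therefore measure only the spread between these samples, which may be technical.

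Chemokines are small secreted proteins that guide the movement of cells, and most signal through receptors coupled to inhibitory G proteins. Atypical receptors bind chemokines without that coupling and mainly remove or redistribute them. In blood formation the ligand Cxcl12 and its receptor Cxcr4 hold stem cells in their niche, whereas inflammatory CC ligands draw monocytes and macrophages. Cxcl9, Cxcl10 and Cxcl11 are known as interferon-inducible ligands of the receptor Cxcr3, and transcription of Cxcl10 can be switched on by interferon through an interferon-stimulated response element (ISRE) and by inflammatory signals through NF-kappaB sites.

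The promoter of Cxcl10 is shown because it joins both inputs ahead of a gene whose signal turned out nearly the same on all arrays. The sequences are from RefSeq (GRCm38.p6) and run 5′ to 3′ on the strand of the gene. Searched on both strands of the 250 bases before the start were the ISRE core GAAANNGAAA, the gamma-activated sequence TTCNNNGAA and the NF-kappaB consensus. The Cxcl10 window, on the minus strand at chr5:92348890-92349139, held 1 ISRE core, at -213 to -204 from the start. It also held 2 NF-kappaB matches, at -159 to -150 and at -103 to -94, and no match overlapped another. Capitals mark these 3 matches.
Cxcl10: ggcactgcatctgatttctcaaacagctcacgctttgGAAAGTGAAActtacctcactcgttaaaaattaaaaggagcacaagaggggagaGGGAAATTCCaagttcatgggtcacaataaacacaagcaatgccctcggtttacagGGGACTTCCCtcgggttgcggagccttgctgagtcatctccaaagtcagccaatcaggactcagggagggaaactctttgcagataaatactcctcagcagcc

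The neutrophil-attracting ligands Cxcl1, Cxcl2 and Cxcl3 are shown because these members of 1 gene cluster carried the same NF-kappaB match and had signal on every array. Cxcl15, which lies between Cxcl3 and Cxcl1, had signal on no array. In each, matches on both strands overlapped by all but 1 base, so that the capitals cover 11 bases. The windows of 60 bases lie on the plus strand at chr5:90891150-90891209 (Cxcl1), chr5:90903778-90903837 (Cxcl2) and chr5:90786004-90786063 (Cxcl3).
Cxcl1: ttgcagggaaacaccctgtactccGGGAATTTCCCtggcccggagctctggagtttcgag
Cxcl2: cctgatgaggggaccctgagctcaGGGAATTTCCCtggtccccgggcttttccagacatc
Cxcl3: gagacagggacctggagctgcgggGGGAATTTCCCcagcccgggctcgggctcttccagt

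RefSeq promoter entries matched 36 of the 49 members (38 promoters). The NF-kappaB consensus was in 9 of these 38 promoters, against 3.90% of 32851 promoters of the same length. The 9 genes were Ackr2, Ccl9, Ccl20, Ccr3, Ccr6, Cxcl1, Cxcl2, Cxcl3 and Cxcl10, of which 6 had signal on every array. The ISRE core was in 2 (Cxcl10 and Cxcl14) against 2.98% of all promoters. The gamma-activated sequence was in 4 (Ccl17, Ccr1l1, Ccr6 and Cxcl14) against 7.02%. A match is a description of the letters and not of a bound site.

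Signal was judged against 73 sensory receptor genes (olfactory, vomeronasal and taste), which were assumed to be mostly silent in these cells. Whether some of them are transcribed there was not checked. A gene had signal on an array where its log2 value lay above the 95th percentile of these genes, which was 4.50 to 4.94 over the arrays. Of the sensory receptor genes, 2.74% lay above this limit on every array. Of the 49 members, 22 had signal on every array, 14 on some arrays and 13 on none. The share of 44.9% on every array compares with 48.6% of all genes. It was carried by the ligands, with 17 of 30, against 5 of 19 receptors. The nearest member inside the limit was Cxcl14, by 0.21 on its lowest array, and the nearest outside was Cxcl17, which fell short by 0.03 on 1 array. Signals of different probe sets are not compared as levels, since each probe set has its own response.

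**Figure D1:**
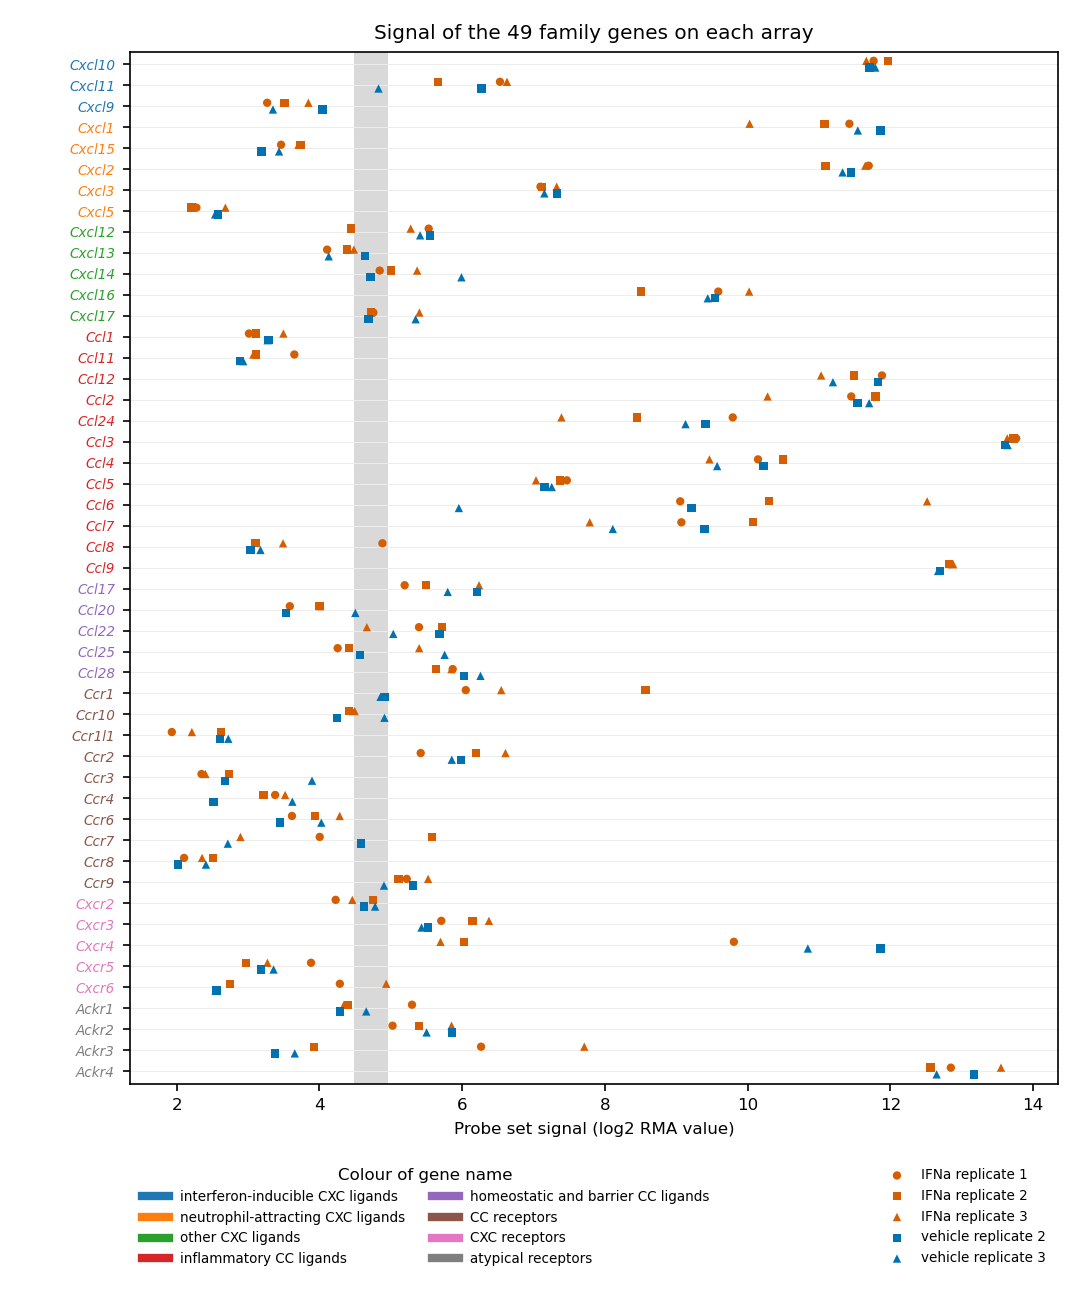
Log2 RMA signal of each of the 49 genes (rows, coloured by role) on each of the 5 arrays (orange, IFNa; blue, vehicle; marker shape, replicate number). The grey band spans the 95th percentiles of the sensory receptor genes, 4.50 to 4.94; 22 genes lie above their array's limit on every array, and Cxcr4, Ccl6, Ackr3 and Ccr1 spread most widely.

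The sort markers and other cell types were checked in the same way. Cdh5 (VE-cadherin) and Ptprc (CD45) had signal on every array, and the stem cell receptor Kit on 3 of 5. All 14 measured macrophage markers had signal on every array, with the macrophage receptor Csf1r at 14.3 to 14.7. Array pairs of the same group correlated at 0.924 to 0.955 (Pearson, across genes, which are not independent replicates) and pairs from different groups at 0.892 to 0.933. Summed log2 levels of the marker lists overlapped between groups except for 3. Granulocyte and monocyte markers (9 genes) summed to 70.0 to 80.7 with IFNa and 67.1 to 67.5 with vehicle. Lymphoid markers (6 genes, 3 with signal on every array and 2 on none) summed to 25.2 to 28.0 and 28.3 to 28.8. Epithelial markers (4 genes, 1 with signal on every array and 2 on none) summed to 15.6 to 16.4 and 18.6 to 20.2. Values under the limit of signal are part of these sums. The part of these differences between sums in the results below was not tested. In bulk samples fewer cells of a type and less RNA per cell cannot be told apart.

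No chemokine or chemokine receptor passed the test between IFNa and vehicle. In limma's moderated fit over all genes, with Benjamini-Hochberg adjustment, 0 of 49 members were called higher and 0 lower at an adjusted p under 0.05. Among all genes 0.0169% were called higher and 0.118% lower. At an unadjusted p under 0.05 stood 4 members. Higher were Ccr1, Ackr3 and Ccl6 (3 of 49, or 6.12%, against 4.52% of all genes), and lower was Cxcr4 (1 of 49, or 2.04%, against 5.51%). Values on all IFNa arrays lay above both vehicle arrays for 7 members (14.3%, against 11.5% of all genes) and below them for 3 (6.12%, against 14.1%). These shares are near those of all genes or below them. The median difference over the members was 0.05 on the log2 scale, and -0.04 over all genes. It was within 0.5 for 37 of 49 members (75.5%), against 62.6% of all genes.

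**Figure D2:**
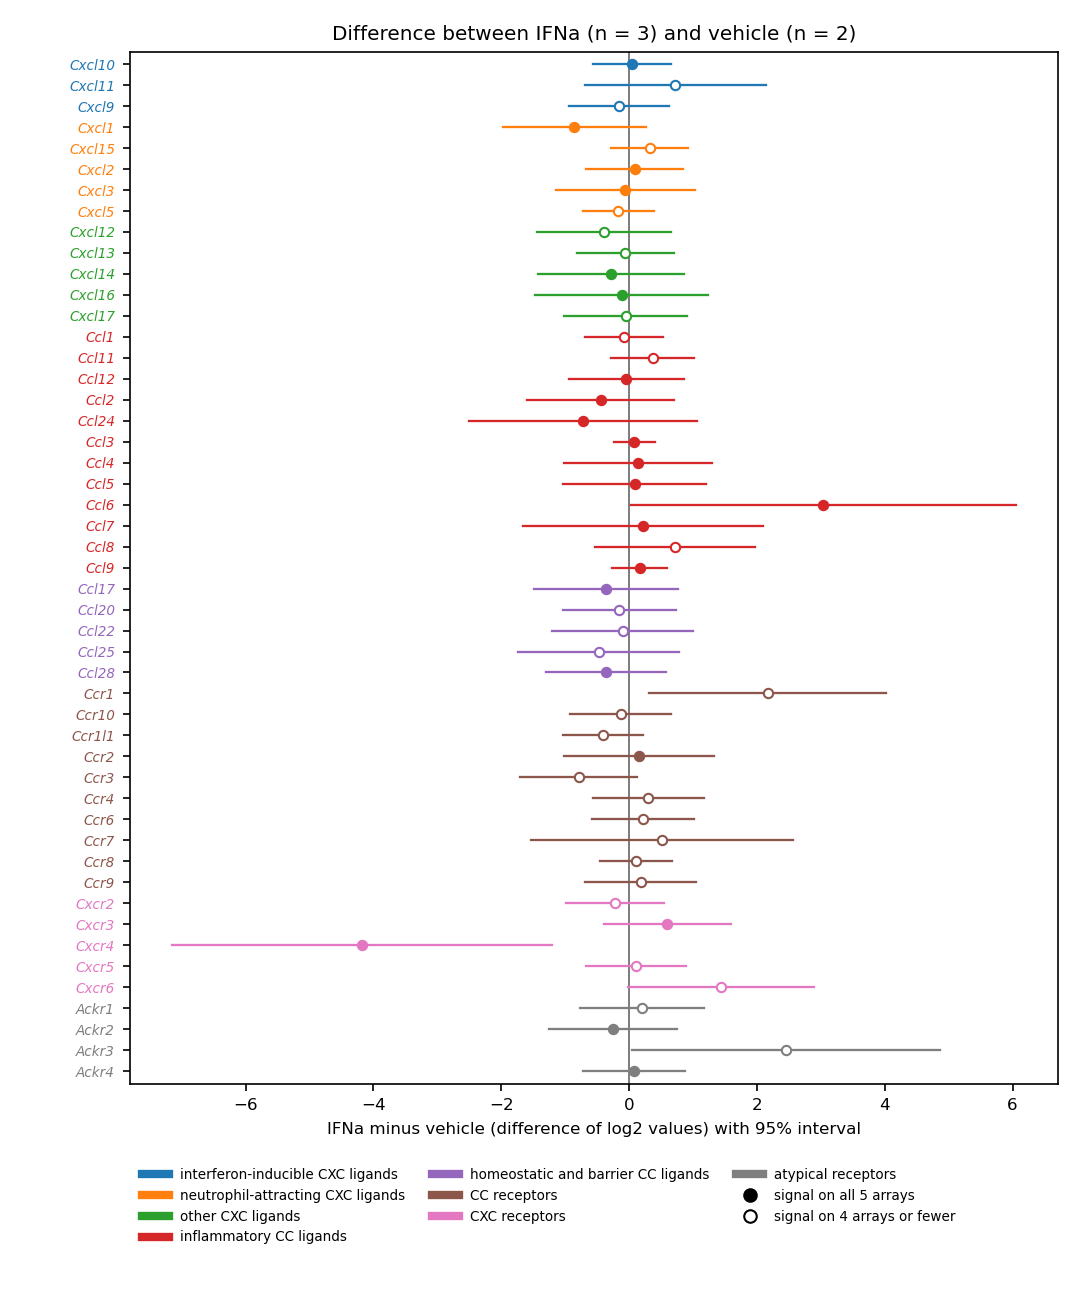
Difference of log2 values, IFNa (n = 3) minus vehicle (n = 2), with limma's 95% interval, for each of the 49 genes grouped by role (colour). Filled points are the 22 genes with signal on all 5 arrays; the intervals of Cxcr4, Ccr1, Ackr3 and Ccl6 leave out 0, and none of these passed after adjustment.

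The interferon-inducible ligands did not differ detectably. Cxcl10, which attracts activated T cells, read 11.77, 11.97 and 11.66 with IFNa and 11.71 and 11.79 with vehicle. The groups overlapped, and all arrays lay within 0.30 of each other. Its difference of 0.05 ± 0.26 (SE) had a 95% interval of -0.56 to 0.66, which leaves out a 2-fold change in either direction (adjusted p = 0.979, limma).

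Cxcl11 read 6.53, 5.66 and 6.63 with IFNa and 6.27 and 4.83 with vehicle, so that only vehicle replicate 3 lay under its limit. In the C57BL/6 strain this gene is known to carry a frameshift, so its transcript makes no full protein. The difference of 0.72 ± 0.59 had an interval of -0.69 to 2.14 (adjusted p = 0.784, limma), and it was 0.0019 without vehicle replicate 3. Cxcl9, the ligand most tied to interferon-gamma, was under the limit everywhere, at 3.27, 3.51 and 3.84 with IFNa and 4.04 and 3.35 with vehicle.

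Their receptor Cxcr3, a receptor of activated T and NK cells, had signal on every array. It read 5.71, 6.15 and 6.38 with IFNa and 5.52 and 5.43 with vehicle. Each IFNa array was above both vehicle arrays, by a small step. The difference was 0.60 ± 0.41, with an interval of -0.39 to 1.59 (adjusted p = 0.723, limma).

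In the other receptor-ligand axis, with a known place in stem cell biology, the receptors Cxcr4 and Ackr3 varied far more than Cxcr3. Cxcr4, the receptor that retains stem cells near Cxcl12, read 11.86 and 10.84 with vehicle and 9.81, 6.03 and 5.70 with IFNa. All IFNa arrays were below both vehicle arrays, IFNa replicate 1 by the least. The mean was 7.18 ± 2.28 (SD, n = 3) against 11.4 ± 0.72 (SD, n = 2), and the difference of -4.18 ± 1.25 (SE) corresponds to 18.1-fold. Its 95% interval was -7.15 to -1.20, with an unadjusted p of 0.0131 and an adjusted p of 0.358 in limma. It was the lowest p of the 49 members. Without IFNa replicate 1 the difference was -5.49 (adjusted p = 0.150, limma), and over all settings tried it lay between -5.49 and -3.44. Of the 10 sort and stem cell markers, 2 also had an unadjusted p under 0.05, both with lower values on all IFNa arrays and neither called. Over all genes 5.51% were lower at that p, and 14.1% lay lower on all IFNa arrays. The stem cell surface protein Cd34 read 5.48, 6.76 and 5.02 with IFNa and 8.53 and 8.20 with vehicle (-2.61 ± 0.63, adjusted p = 0.268, limma). Ptprc, the gene of the sort marker CD45, read 5.85, 7.03 and 5.35 with IFNa and 7.23 and 8.95 with vehicle (-2.02 ± 0.75). Gfi1 (2.67 ± 1.39), Kit (1.66 ± 0.97), Runx1 (0.43 ± 0.90) and Gata2 (0.16 ± 0.50) went the other way on average. Gfi1 was higher on all IFNa arrays. The rest of this list was lower on average, with overlap. Of the 14 macrophage markers, Timd4 was the 1 under 0.05, at -2.54 ± 0.91, where all genes have 10% with both directions together. Summed levels of the sort and stem cell list overlapped, at 66.6 to 69.2 with IFNa and 67.7 to 72.5 with vehicle. The part of these markers in the Cxcr4 value was not tested.

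Ackr3, an atypical receptor that takes up Cxcl12, went the other way on average. It read 6.26, 3.92 and 7.71 with IFNa and 3.38 and 3.65 with vehicle. Both vehicle arrays and IFNa replicate 2 were under the limit, while IFNa replicates 1 and 3 were well above it. With the vehicle arrays raised to their limits the IFNa mean was 2.37-fold higher, a figure that leaves out the spread between arrays. As deposited the difference was 2.45 ± 1.01 (interval 0.05 to 4.86, unadjusted p = 0.0467, adjusted p = 0.491, limma). Leaving out IFNa replicate 3 brought it to 1.58, and leaving out IFNa replicate 2 to 3.47. The Ackr3 probe set is of a kind that can match several transcripts.

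The shared ligand Cxcl12, made mainly by stromal and endothelial cells, read 5.53, 4.44 and 5.28 with IFNa and 5.55 and 5.41 with vehicle. The groups overlapped, and IFNa replicate 2 was the 1 array under the limit. The difference was -0.40 ± 0.44, with an interval of -1.45 to 0.66 (adjusted p = 0.862, limma). The array with the lowest Ackr3 among the IFNa samples was thus also the one with the lowest Cxcl12, whereas Cxcr4 was lowest in IFNa replicate 3.

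**Figure D3:**
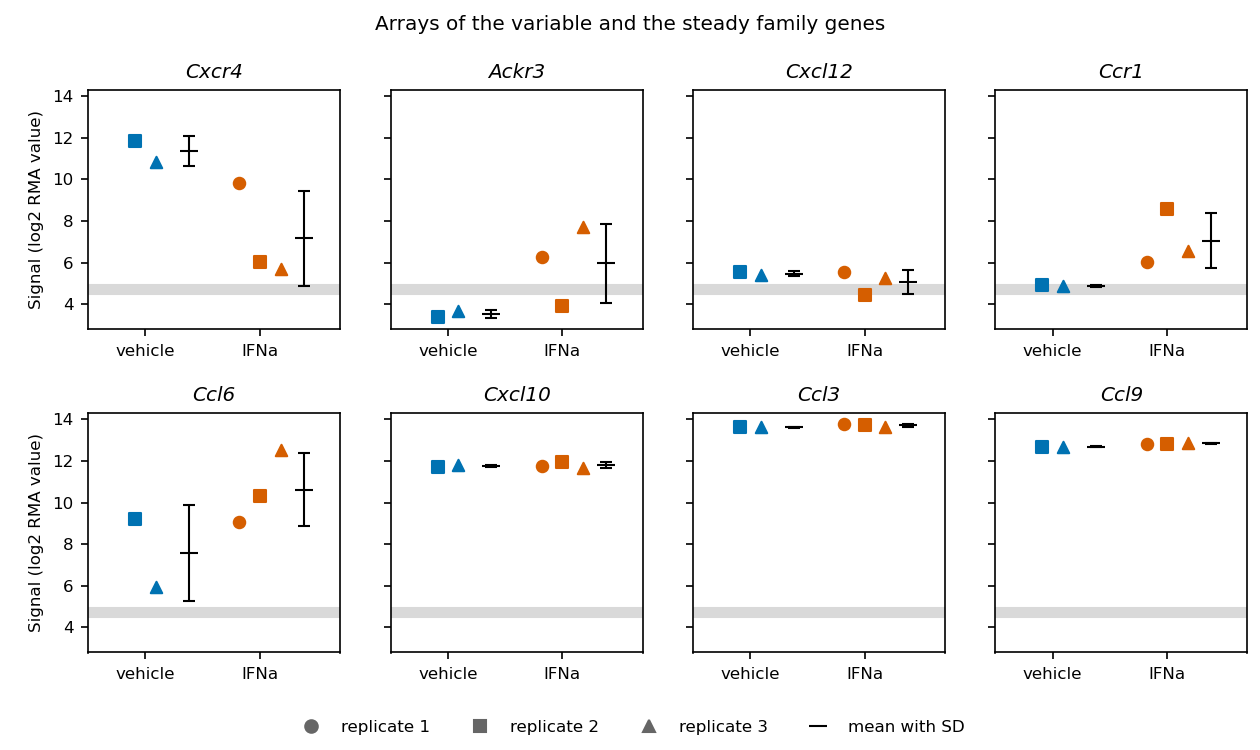
Log2 RMA signal on each array for 8 genes, with vehicle (blue, n = 2) and IFNa (orange, n = 3), replicate number as marker shape, and the mean with SD in black. The grey band marks 4.50 to 4.94, the limits of signal; Cxcr4, Ackr3, Ccr1 and Ccl6 spread widely, while Cxcl10, Ccl3 and Ccl9 lie within 0.30 over all 5 arrays.

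Inflammatory CC ligands formed the largest block of members, and 9 of 12 had signal on every array, against 48.6% of all genes. Ccl3 (MIP-1 alpha), a ligand of Ccr1, read 13.76, 13.73 and 13.64 with IFNa and 13.61 and 13.65 with vehicle. Ccl9, another Ccr1 ligand, read 12.83, 12.82 and 12.88 with IFNa and 12.69 and 12.67 with vehicle. For Ccl9 the groups did not overlap, yet the step was small. Its difference was 0.16 ± 0.18 (adjusted p = 0.861, limma), and that of Ccl3 was 0.08 ± 0.14, with an interval of -0.24 to 0.41.

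Ccl12 and Ccl2, which recruit monocytes through Ccr2, were also close between groups. Ccl12 read 11.88, 11.49 and 11.03 with IFNa and 11.82 and 11.20 with vehicle. Ccl2 read 11.45, 11.79 and 10.28 with IFNa and 11.54 and 11.70 with vehicle, the low value being IFNa replicate 3. Their differences were -0.04 ± 0.37 and -0.45 ± 0.48. Ccl7, another ligand of this receptor, read 9.07, 10.07 and 7.79 with IFNa and 9.40 and 8.11 with vehicle, again with IFNa replicate 3 lowest. Its difference was 0.22 ± 0.79.

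Ccl5 (RANTES), an interferon-responsive ligand in many cells, read 7.47, 7.37 and 7.04 with IFNa and 7.15 and 7.26 with vehicle. The groups overlapped, and the difference was 0.09 ± 0.47 (interval -1.03 to 1.20). Ccl8, known to be induced by interferons in macrophages, was under the limit on all arrays but IFNa replicate 1. It read 4.88, 3.11 and 3.49 with IFNa and 3.03 and 3.17 with vehicle. Ccl4 (MIP-1 beta) ranged from 9.47 to 10.50 and Ccl24 (eotaxin-2) from 7.39 to 9.79, with differences of 0.14 ± 0.48 and -0.73 ± 0.75. Ccl1 and Ccl11 had signal on no array.

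Ccl6, a myeloid ligand, was the exception in the block, and was picked out after its values were seen. It read 9.06, 10.30 and 12.52 with IFNa and 9.21 and 5.95 with vehicle. IFNa replicate 1 lay below vehicle replicate 2, so the groups overlapped. The difference was 3.04 ± 1.26 (unadjusted p = 0.0485, adjusted p = 0.494, limma), and leaving out vehicle replicate 3 gave 1.41, leaving out vehicle replicate 2 gave 4.67. Its probe set is of a kind that can match several transcripts.

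Of the 10 CC receptors, 1 had signal on every array, Ccr2. Ccr1, a receptor of macrophages and neutrophils, read 6.05, 8.57 and 6.55 with IFNa and 4.92 and 4.86 with vehicle. Ccr1 had signal on 4 arrays, with vehicle replicate 3 under its limit of 4.94 and vehicle replicate 2 above its limit of 4.50. All IFNa arrays were above both vehicle arrays. The difference was 2.17 ± 0.78 (interval 0.31 to 4.03, unadjusted p = 0.0283, adjusted p = 0.427, limma), and 1.41 without IFNa replicate 2. That array also read highest for 5 of the 9 granulocyte and monocyte markers (Mpo, Ngp, Prtn3, S100a8 and S100a9). IFNa replicate 3 read highest for Camp, Csf3r and Elane, and vehicle replicate 3 for Ctsg. S100a8 read 14.59 on IFNa replicate 2, against 7.87 to 12.30 on the other arrays, whereas Csf3r read 6.97 there, against 6.78 to 8.72. As a list, 7 of the 9 granulocyte and monocyte markers had signal on every array (48.6% of all genes did), and Ctsg and Elane on none. In limma 0 were called, and 2 (S100a8 and Prtn3) were higher at an unadjusted p under 0.05, where all genes have 4.52%. Nothing is read from these counts. The part of these markers in the Ccr1 value was not tested.

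Ccr2, the monocyte receptor of Ccl2, read 5.42, 6.19 and 6.61 with IFNa and 5.99 and 5.85 with vehicle. Both vehicle arrays lay inside the IFNa range, and the difference was 0.15 ± 0.49 (interval -1.03 to 1.33). Of the other CC receptors, Ccr9 had signal on 4 arrays and Ccr7, which guides cells to lymph nodes, on 2 (2.72 to 5.58 over all arrays). The other 6 had signal on none (Ccr1l1, Ccr3, Ccr4, Ccr6, Ccr8 and Ccr10), at 1.93 to 4.91.

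**Figure D4:**
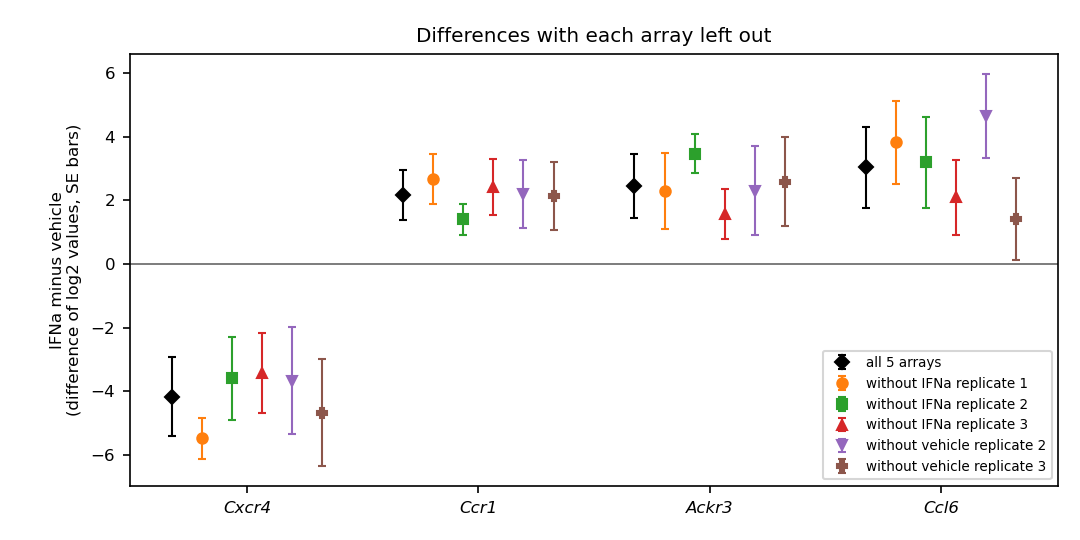
Difference of log2 values, IFNa minus vehicle, with SE bars, for the 4 genes with an unadjusted p under 0.05, using all 5 arrays (black) or leaving out 1 array at a time (colours). Each sign was kept in all fits, while the difference of Ccl6 ran from 1.41 to 4.67 and that of Cxcr4 from -5.49 to -3.44.

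Of the neutrophil-attracting ligands, 3 of 5 had signal on every array. Cxcl2 (MIP-2) read 11.70, 11.09 and 11.65 with IFNa and 11.45 and 11.33 with vehicle, with overlap and a difference of 0.09 ± 0.32. Cxcl1 (KC) read 11.43, 11.08 and 10.03 with IFNa and 11.86 and 11.54 with vehicle. All IFNa arrays of Cxcl1 were lower, IFNa replicate 3 by the most, and the difference was -0.86 ± 0.47 (interval -1.98 to 0.26, adjusted p = 0.628, limma). Cxcl3 stayed between 7.10 and 7.33. Their shared receptor Cxcr2, a neutrophil receptor, read 4.23, 4.75 and 4.46 with IFNa and 4.62 and 4.78 with vehicle, so that only vehicle replicate 2 passed the limit. Cxcl5 (LIX) and Cxcl15 (lungkine) had signal on no array, at 2.21 to 2.68 and 3.19 to 3.74.

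Cxcl16, a membrane-bound ligand of macrophages and dendritic cells, ranged from 8.51 to 10.02, with a difference of -0.12 ± 0.56. Its receptor Cxcr6 was under the limit on both vehicle arrays and passed it only on IFNa replicate 3, at 4.94, so no fold is given. Differences of the 5 other CXC ligands ran from -0.40 to -0.06, but those of Cxcl13 and Cxcl17 turned positive under median centring and under repeated quantile normalization. Differences of the 5 homeostatic and barrier CC ligands ran from -0.47 to -0.10 and were below 0 under both scalings too. Over all genes 54.0% were below 0, or 46.3% with median centring and 48.4% with quantile normalization. In limma none of these ligands had an unadjusted p under 0.05. Among the former, Cxcl14 had signal on every array, Cxcl17 on 4 and the B cell attractant Cxcl13 on 1. In the latter group Ccl17 and Ccl28 had it on every array, Ccl22 on 4, Ccl25 on 3 and Ccl20 on none. Cxcr5, the receptor of Cxcl13, had it on none, at 2.97 to 3.88.

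Ackr4, which removes the homeostatic ligands Ccl19, Ccl21 and Ccl25, read 12.85, 12.56 and 13.55 with IFNa and 13.17 and 12.65 with vehicle. The groups overlapped, and the difference was 0.08 ± 0.33 (adjusted p = 0.975, limma). Whether its probe set detects this transcript alone could not be checked. Ackr2, a scavenger of inflammatory CC ligands, had signal on every array, with a difference of -0.26 ± 0.42. Ackr1, the Duffy antigen receptor, passed the limit on IFNa replicate 1 alone.

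Members that lie next to each other in the genome did not share 1 behaviour. The run Ccl5, Ccl9, Ccl6, Ccl3 and Ccl4 had signal on every array in 5 of 5 genes, with differences from 0.08 to 3.04. In the run Ccl2, Ccl7, Ccl11, Ccl12, Ccl8 and Ccl1, 3 of 6 genes had it. In the run Cxcl3, Cxcl15, Cxcl1 and Cxcl2, 3 of 4 had it. Of the adjacent receptor genes Ccr1, Ccr1l1, Ccr3 and Ccr2, 1 of 4 had it, Ccr2. The order of genes is that of the RefSeq table for GRCm38.p6.

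Chemokine family genes with other names gave a like picture. The list fixed for them had 10 measured genes with a median difference of -0.22. By limma 0 passed, and 1 lay under 0.05 without adjustment, where all genes have 10% with both directions together. That 1 was Cmklr1, a receptor for the attractant chemerin on macrophages, at 9.04, 11.18 and 7.57 with IFNa and 6.27 and 6.49 with vehicle (difference 2.89 ± 1.02, adjusted p = 0.415, limma). Pf4 (platelet factor 4) read 11.99, 11.84 and 11.73 with IFNa and 11.37 and 11.25 with vehicle, higher on every IFNa array by a small step. Its difference was 0.54 ± 0.26 (adjusted p = 0.570, limma). Lower on every IFNa array were Cx3cl1 (-0.69 ± 0.31), Xcr1 (-0.66 ± 0.34) and Pitpnm3 (-0.46 ± 0.26). Of these, Cx3cl1 and Xcr1 each had signal on 1 array and Pitpnm3 on none. The fractalkine receptor Cx3cr1 ranged from 8.01 to 10.35 and the atypical receptor Ccrl2 from 9.90 to 10.55, both with overlap.

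Downstream of the receptors, 39 genes of chemokine signalling were measured and 29 had signal on every array. In limma 0 passed. At an unadjusted p under 0.05 stood 3 with higher values, where all genes have 4.52%, and 2 with lower values, where all genes have 5.51%. The 5 genes are described singly, and nothing is read from their number. Higher were Was, the actin regulator of blood cells (2.45 ± 0.45, adjusted p = 0.161, limma), Pik3cg, the lipid kinase under G-protein-coupled receptors (2.07 ± 0.67), and the G-protein subunit Gnb2 (1.30 ± 0.47). Lower were the receptor-desensitizing beta-arrestin Arrb2 (-1.16 ± 0.47) and the receptor kinase Grk5 (-0.91 ± 0.37), the latter under the limit on every array. Groups did not overlap for these 5, which were picked by p-value in the same fit. Over all genes 11.5% lay higher without overlap and 14.1% lower. The median over the list was -0.08.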

How the data were processed

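The authors deposited log2 probe set values. RMA is the method named in the submitters' processing notes, with its version not given in the sources used here. RMA corrects background, normalizes between arrays and summarises probes. Values ran from -1.95 to 15.6. Since RMA rarely gives values below 0, the low end of the scale is uncertain. No detection calls were used. The number of arrays limits the precision. Of 20881 rows, 17838 had 1 platform symbol (17756 symbols; the row with the highest mean was kept), 244 had several and 2799 had none here. All 49 members had 1 row and the same symbol in the RefSeq table (GRCm38.p6). The row that names Ccl19 with other genes was left out. Of the members' probe sets, 8 have a suffix (_a or _s) used for sets that may hit more than 1 transcript.

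Groups came from the sample titles. IFNa was compared with vehicle by limma 3.58.1 in R 4.3.3 (lmFit, eBayes with trend) on the 5 arrays for 17756 genes, two-sided, with Benjamini-Hochberg adjustment. The fit was tested on simulated data. Errors on differences are moderated SEs. The members and lists were chosen with earlier results of these data known. Members named in full were those with an unadjusted p under 0.05 and no overlap (3), the 8 with the highest mean signal, and 15 fixed by name, 20 in all. Other genes named with values were chosen after these were seen.

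Alternatives were each array left out, a floor at the 20th percentile (3.35), genes above the median level only, repeated quantile normalization, median centring, variance without a trend or robust, the mean of all rows of a symbol, a fixed replicate block, an adjusted p under 0.1, and other limits of signal.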

Additional observations from a re-analysis of the deposited data

How the results depend on the processing

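Under every alternative run for the fit, including an adjusted p under 0.1 and each array left out in turn, limma called 0 members higher and 0 lower. At an unadjusted p under 0.05 stood 2 to 5 members in these fits, against 4 in the fit reported. With the replicate number as a fixed replicate block, 0 members were called, 2 stood under 0.05 unadjusted, and the members had a median difference of -0.0021. Arrays with the numbers 2 and 3 deviated together at r of 0.0024 and 0.043 across genes. The labels do not pair them, and the arrays share a number and no more. With the block limma called 0 of all genes. The median difference ranged from -0.03 to 0.13 over the settings, less than the 0.09 spread between replicates away from 0.05. Of the 21 members followed through 13 settings, 11 changed sign in at least 1, none of them among Cxcr4, Ccr1, Ackr3 and Ccl6. The count of members with signal on every array depended on the limit, at 14 with the 99th percentile of the sensory receptor genes, 32 with the 90th, 19 with the median of all genes and 36 with the 20th percentile of all genes, against 22. It was 22 to 25 with each array left out. Fewer members were tested in some settings, 46 with the floor and 23 above the median level. Over all genes the calls reported, 3 higher and 21 lower, ranged with 1 array left out from 0 to 37 and from 0 to 144. They came to 1 and 2 without a trend, 0 and 0 with the floor and 1 and 0 above the median level. Dim members can show little of a response on these arrays.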

Other observations

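Among the 22 members with signal on every array, 5 stayed within 0.5 on the log2 scale over all 5 arrays (Ccl3, Ccl9, Cxcl3, Cxcl10 and Ccl5), or 22.7%, against 6.78% of the 8630 genes with signal on every array. The median range was 1.01 for the members and 1.47 for those genes. The members were not matched to those genes for signal level, and the part of level in these values was not tested. At the other end, Ccl6 (6.56) and Cxcr4 (6.17) ranged over more than 3, or 9.09% of the members against 10.3% of the genes.

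IFNa replicate 3 was the lowest array for 9 of the 22 members and the highest for 7, against 21.0% and 22.0% of the 8630 genes. It was lowest for Ccl2, Ccl4, Ccl5, Ccl7, Ccl12, Ccl24, Cxcl1, Cxcl10 and Cxcr4. The members with their highest value on it were Ccl6, Ccl9, Ccl17, Cxcl16, Ccr2, Cxcr3 and Ackr4. Vehicle replicate 3 was the lowest array for Ccl6, at 5.95.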
